A study of Mus musculus with 12 samples.

Results

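The expression of 9 genes of leukocyte adhesion was followed in differentiated mouse neurospheres: Vcam1 and Icam1, which encode ligands on the surface of vessel wall and glial cells, the leukocyte integrin subunits Itgb2, Itgam, Itgal, Itgax and Itga4, and Selplg and Cd44, which encode glycoproteins that bind selectins and hyaluronan. Members were found by the RefSeq identifier that each array probe carries, which gave 18 of the 55681 probes that are not controls, for 9 of the 20887 genes with a named probe. Neurospheres are floating clusters of neural progenitor cells. They had been grown from the telencephalon of C57BL/6 embryos at embryonic day 13 and differentiated for 7 days after withdrawal of growth factors. WT neurospheres came from wild-type embryos. APP_WT neurospheres came from embryos with the APPswe and PS1dE9 transgenes, mutant forms of the amyloid precursor protein and presenilin 1 that cause familial Alzheimer's disease, and stayed untreated. BK_APP neurospheres carried the same transgenes and received 1 µM bradykinin (BK), the peptide ligand of the kinin B2 receptor, on days 0, 3 and 6. HOE_APP neurospheres carried them too and received 1 µM HOE-140, a peptide antagonist of that receptor, on the same days. RNA was taken on day 7, so that both drugs can be compared at a matched dose and time.

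Leukocytes leave the blood by rolling on selectins through glycoproteins such as PSGL-1, the product of Selplg, and then by firm arrest, in which integrins bind immunoglobulin-type ligands on the vessel wall. The β2 chain encoded by Itgb2 pairs with αL, αM or αX, the products of Itgal, Itgam and Itgax, and these pairs bind ICAM-1, while α4, the product of Itga4, pairs with β1 or β7 and binds VCAM-1. In brain tissue VCAM-1 and ICAM-1 are also made by glia, microglia carry β2 integrins, and CD44 is found on astrocytes and on immune cells.

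Each comparison rested on 4 Agilent 2-color arrays, on which the RNAs of both conditions were read together, with dyes swapped on 2 of the 4. On each array, 45.2% to 60.1% of spots in a channel were well above background and 1 spot was saturated over all arrays. The 4 biological replicates per model are stated in the study's methods. APP_WT is a partner in all 3 comparisons, which are therefore not independent. Arrays of APP_WT versus WT lay on one slide and the other arrays on another, so that slide and this comparison cannot be told apart, although every ratio is formed within an array. On each HOE_APP array both channels carry the same label, HOE-140 on replicates 1 and 2 and untreated on replicates 3 and 4. The direction used here was taken from the array titles, the first channel's label and the dye swap, and is likely only. Across the dye swap, BK_APP arrays correlated with r between −0.32 and −0.11 over the expressed probes and HOE_APP arrays with r between −0.32 and −0.19, against 0.24 to 0.46 for APP_WT versus WT. Fold changes below are log2 values of the first-named over the second-named condition, with the standard error (SE) of one limma model over the 12 arrays. Their p-values were adjusted by Benjamini-Hochberg over 29361 expressed probes, and a gene is called at an adjusted p under 0.05. These are bulk cultures, in which more cells of a type and more RNA per cell cannot be told apart.

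Of the 18 probes, 11 were expressed, that is, 1 condition of some comparison showed them well above background on 3 or 4 arrays, and they stood for 7 genes. Icam1 and Itgax had no expressed probe. A gene with several expressed probes is represented by the brightest. In neurospheres with the transgenes, the ligand Vcam1 was overexpressed compared to WT by more than any other of the 7 expressed members, and Cd44 and Itgb2 were called too. In all, 3 of the 7 measured members were called higher in APP_WT and 0 lower, where 18.5% of all expressed probes were called and 11.6% called higher. All 7 members had a fold change above 0, with a median of 0.20, against a median of 0.0039 and a share of 51.2% above 0 over all expressed probes. The sign of Selplg and Itgam turned under other settings, Selplg to −0.0097 with signals processed by the scanner software and to −0.0028 without array 1, and Itgam to −0.065 with ratios centred on the median and to −0.032 without array 3. Vcam1, Itgb2 and Cd44 lay above 0 on all 4 arrays, as did 15.1% of expressed probes.

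**Figure D1:**
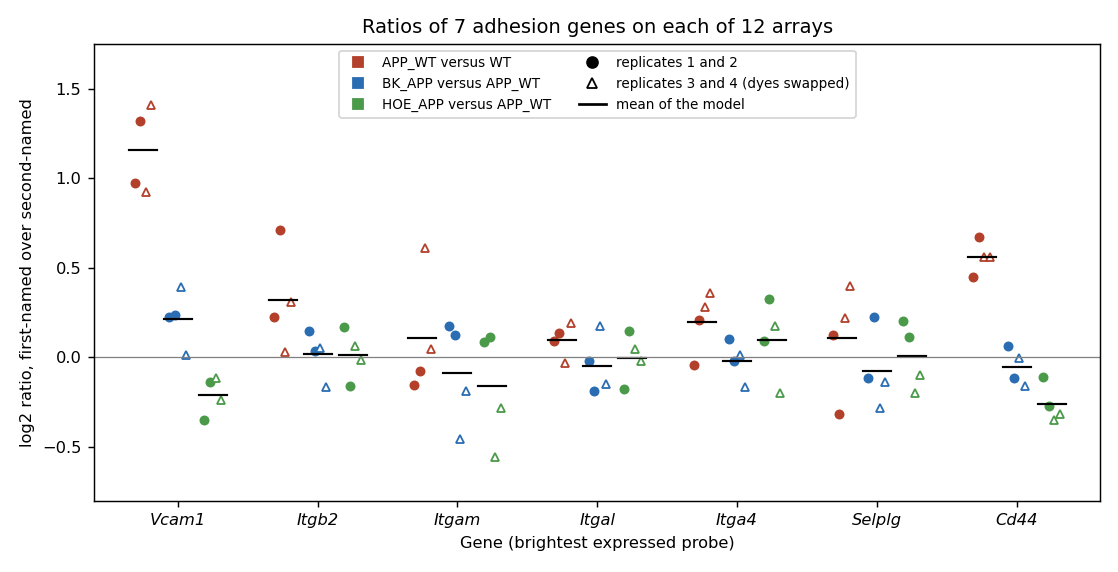
Log2 ratio of the first-named over the second-named condition (vertical axis) of the brightest expressed probe of 7 genes on each of the 12 arrays, colored by comparison, with filled circles for replicates 1 and 2, open triangles for replicates 3 and 4, on which the dyes were swapped, and a bar for the mean of the model. In APP_WT versus WT the 4 ratios of Vcam1 lie between 0.93 and 1.41 and those of Cd44 between 0.45 and 0.67, whereas the ratios of Itgam split by dye orientation in all 3 comparisons.

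Vcam1 encodes the ligand of α4 integrins. Its log2 channel level in WT was 11.91, 11.63, 11.94 and 11.64 on the 4 arrays, and in APP_WT it was 12.88, 12.95, 12.87 and 13.05. The lowest APP_WT level lay above the highest WT level. The ratios on the arrays were 0.97, 1.32, 0.93 and 1.41, which gave a log2 fold change of 1.16 (SE 0.09, 95% interval 0.95 to 1.36), or 2.23-fold, with an adjusted p of 1.16e-05 by limma. A second Vcam1 probe, which was dimmer and above background in WT on only 2 of 4 arrays, had a log2 fold change of 0.69 (SE 0.07, adjusted p 8.11e-05 by limma), positive on all 4 arrays. Both probes were thus called in the same direction, with a smaller fold change at the dim probe.

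Icam1 encodes the ligand of β2 integrins. Its single probe passed the background limit of the scanner on 0 of 4 arrays in WT and on 1 of 4 in APP_WT. The ratios of APP_WT over WT were 0.22, 0.41, 0.52 and 0.89, all above 0, with measured mean log2 levels of 6.43 in APP_WT and 5.92 in WT. As the probe was near background in both conditions, no fold is given. It stood outside the filter on dim probes, and without that filter it passed the test with an adjusted p of 0.00106 by limma.

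Of the 9 members, 5 had an upstream sequence in the RefSeq promoter table used here (build GRCm38.p6): Icam1, Itgam, Itgax, Itga4 and Cd44. The 250 bases before the start of Icam1 and Cd44 are shown because one is the dim ligand with a ratio above 0 on every array of APP_WT versus WT and the other is the glycoprotein called in that comparison, and those of Itgam because its probes disagree. The searched motifs were GAGGAAGT (PU.1), GGAAANTCC (the RelA form of the NF-kB motif), the longer form of the NF-kB motif, the interferon-stimulated response element (ISRE), TGANTCA (AP-1) and GGGCGG (Sp1), on both strands, and capitals mark a match. The stretches are Icam1 at chr9:21015690-21015939 on the plus strand, Cd44 at chr2:102901666-102901915 on the minus strand and Itgam at chr7:128062390-128062639 on the plus strand, each written 5′ to 3′ on the strand of the gene.
Icam1: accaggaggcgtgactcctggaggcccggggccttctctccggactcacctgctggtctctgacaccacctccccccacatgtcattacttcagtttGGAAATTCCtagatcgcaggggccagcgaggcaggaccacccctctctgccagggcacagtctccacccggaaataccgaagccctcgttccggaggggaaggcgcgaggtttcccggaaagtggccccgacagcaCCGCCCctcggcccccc
Cd44: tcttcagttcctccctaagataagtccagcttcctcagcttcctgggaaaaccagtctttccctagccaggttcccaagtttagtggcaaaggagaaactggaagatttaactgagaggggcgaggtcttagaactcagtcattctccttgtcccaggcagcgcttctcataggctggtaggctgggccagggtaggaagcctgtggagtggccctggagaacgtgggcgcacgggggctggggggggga
Itgam: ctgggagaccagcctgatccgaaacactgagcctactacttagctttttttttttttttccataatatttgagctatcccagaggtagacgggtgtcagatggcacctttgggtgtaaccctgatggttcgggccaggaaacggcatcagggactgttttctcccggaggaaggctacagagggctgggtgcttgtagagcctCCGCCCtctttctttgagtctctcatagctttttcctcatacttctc

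In Icam1 the capitals mark GGAAATTCC at positions −153 to −145 from the start, a form of the κB motif found in 1.07% of 32851 promoters of the same length, and an Sp1 match at −17 to −12 on the other strand. In Itgam they mark an Sp1 match at −47 to −42 on the other strand. GGGCGG was held by 32.7% of all promoters. Cd44 held none of the 6 motifs in this window. Of the members whose sequence is not shown, Itga4 had an Sp1 match at −114 to −109, and Itgax had TGAGTCA, an AP-1 match, at −56 to −50, a motif in 6.75% of promoters. PU.1, present in 2.44%, the longer NF-kB form, in 1.41%, and the ISRE, in 2.98%, were not matched in any of the 5 windows. A match in letters is a description of the window and not a bound site.

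Cd44, the receptor of hyaluronan and osteopontin, had log2 levels of 9.48, 9.26, 9.25 and 9.34 in WT and 9.93, 9.94, 9.81 and 9.90 in APP_WT. No APP_WT level fell into the range of WT. Its ratios of 0.45, 0.67, 0.56 and 0.56 varied little and gave a log2 fold change of 0.56 (SE 0.06, adjusted p 7.98e-05 by limma), or 1.48-fold. A second, dimmer Cd44 probe, which was above background in WT on only 2 of 4 arrays, had 0.59 (SE 0.07, adjusted p 3.33e-04 by limma). Both remaining Cd44 probes were not well above background in any channel of the 12 arrays and had mean ratios of −0.02 and 0.07, which carry no level.

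Selplg, which encodes the P-selectin ligand PSGL-1, had ratios of 0.13, −0.31, 0.22 and 0.40 in APP_WT versus WT, with a log2 fold change of 0.11 (SE 0.08, adjusted p 0.389 by limma). One array had a value below 0 and the other 3 values above it, and the change was within the spread of the arrays. A second Selplg probe was dim, with a mean ratio of 0.12 ± 0.16 (SD, n = 4).

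**Figure D2:**
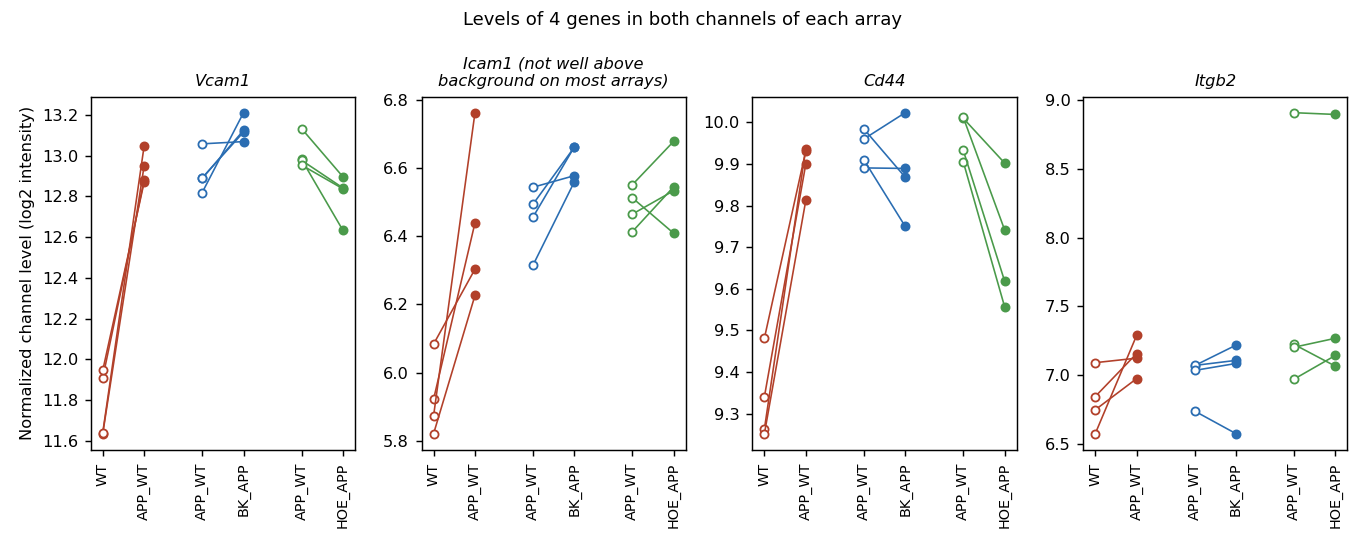
Normalized log2 channel level (vertical axis, a scale of its own for each gene) of Vcam1, Icam1, Cd44 and Itgb2, where each line joins both channels of an array, open circles are the second-named and filled circles the first-named condition, and colors are the 3 comparisons. Vcam1 and Cd44 rise on every array from WT to APP_WT without overlap, and the Itgb2 level of 8.89 in HOE_APP and 8.91 in APP_WT on 1 array stands far above the other 3 in both channels.

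Among the integrins, Itgb2, which encodes the common β2 chain, was called. Its levels in WT were 6.75, 6.58, 7.09 and 6.85 and in APP_WT 6.98, 7.29, 7.13 and 7.16, so that the ranges overlapped, and its probe was well above background on only 2 of 4 arrays in WT. All 4 ratios lay above 0, at 0.23, 0.71, 0.03 and 0.31, with a log2 fold change of 0.32 (SE 0.09, adjusted p 0.0259 by limma), or 1.25-fold. This call rested on the setting. The adjusted p was 0.171 without array 2, with a fold change of 0.20, and 0.146 without array 4, with 0.25. It was 0.117 where each comparison was fitted alone, 0.0661 with the replicate number as a block and 0.0530 with no filter on dim probes, and Itgb2 did not pass the methods' rule described below, which 9.34% of probes passed. Turning the sign of the replicate block in this comparison was a step added after the data were seen. This step gave Itgb2 an adjusted p of 0.00217 by limma, which is a call. With signals processed by the scanner software the fold change was 0.69 (adjusted p 0.0133 by limma). Those signals differ in both the background and the dye correction. With the background step alone changed, the fold change was 0.50 with no normexp offset and 0.40 with no background subtraction, and called in both.

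Itgam encodes the αM chain, known as CD11b and used as a marker of microglia. Its brightest probe had a mean log2 intensity of 12.92 over the arrays, against 7.00 and 6.65 for the other Itgam probes. Why the bright probe lay so far above them was not tested. The ratios of the bright probe were −0.15, −0.08, 0.61 and 0.05 in APP_WT versus WT, which gave 0.11 (SE 0.09, adjusted p 0.427 by limma). By dye orientation the means were −0.11 for replicates 1 and 2 and 0.33 for replicates 3 and 4. The second Itgam probe had 0.31 (SE 0.08, adjusted p 0.0243 by limma), above 0 on all 4 arrays, and the third 0.04 (SE 0.09, adjusted p 0.815), with 0.54 on 1 array and values between −0.19 and −0.09 on the others. The 3 Itgam probes therefore did not give 1 answer, and with their mean in place of the brightest probe the adjusted p was 0.176.

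Itga4, which encodes the α4 chain that binds VCAM-1, had ratios of −0.04, 0.21, 0.28 and 0.36 and a log2 fold change of 0.20 (SE 0.07, adjusted p 0.0872 by limma). With the replicate number as a block the adjusted p was 0.108. With a block of opposite sign in this comparison, added after seeing the data, it was 0.0416, which is a call. The Itga4 probe was well above background on 2 of 4 arrays in APP_WT and on 1 of 4 in WT. Itgal, the αL chain of LFA-1, had ratios of 0.09, 0.14, −0.03 and 0.19, with 0.10 (SE 0.07, adjusted p 0.390), and its probe passed that limit on the same numbers of arrays. Both values moved with the processing of the signals. With no normexp offset, a change of the background correction alone, Itga4 had 0.40 and Itgal 0.20, without being called. With signals processed by the scanner software, which differ in background and dye correction, they had 0.57 and 0.40, again without being called. Itgax, the αX chain CD11c, was well above background on 1 array in APP_WT and on none in WT. Its ratio was 1.07 on that array and −0.01, 0.15 and 0.08 on the other 3, so that no fold is given. The second probes of Itgal and Itga4 were not well above background in any channel.

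Set side by side within each array, Vcam1 exceeded the mean ratio of the 4 expressed integrins by 0.94, 1.07, 0.70 and 1.18 in APP_WT versus WT, a mean of 0.98 ± 0.21 (SD, n = 4). The integrins' own mean ratio was 0.18. This describes 1 ligand against 4 genes, of which Itgb2, Itgal and Itga4 were well above background on only 1 or 2 of 4 arrays in WT. Itgam entered the mean of the integrins by its brightest probe, whose ratios split by dye orientation. With processed signals Vcam1 had 1.16, and Itgb2, Itgam, Itgal and Itga4 had 0.69, 0.09, 0.40 and 0.57, so that the distance was smaller.

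**Figure D3:**
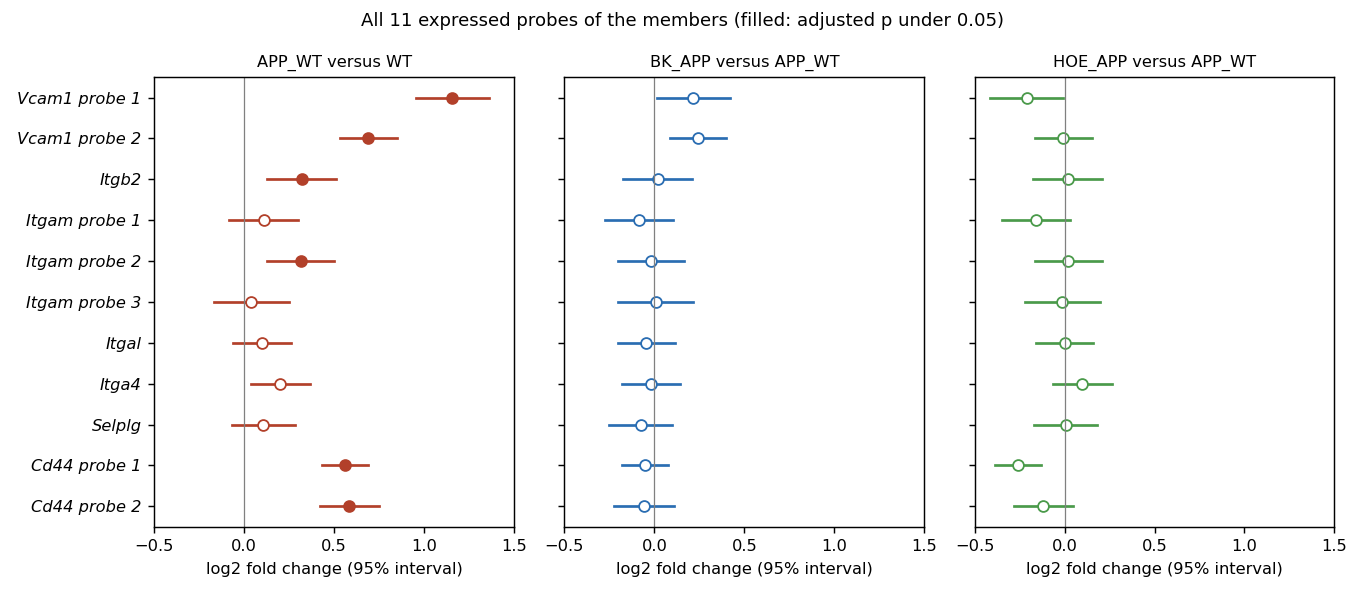
Log2 fold change with its 95% interval (horizontal axis) of the 11 expressed probes of the members in the 3 comparisons, filled where the adjusted p by limma was under 0.05. In APP_WT versus WT both Vcam1 and both Cd44 probes are called, with Vcam1 at 1.16 and 0.69, as are the Itgb2 probe and 1 of the 3 Itgam probes; no probe is called in either drug comparison.

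Marker genes of several cell types were read beside the members. Of 16 markers of microglia and macrophages, 15 were on the array and 13 expressed, and all 13 were called higher in APP_WT. Their fold changes ran from 0.36 (Ptprc) to 2.31 (Cx3cr1) with 1.60 as the median. The log2 of their summed level, over the 12 without a missing value, ran from 11.5 to 11.6 in WT and from 12.7 to 12.9 in APP_WT. Spi1 and P2ry12, which define this lineage, had no expressed probe. Tyrobp had 2.22 and Aif1 2.21, where Itgb2 had 0.32. Of 8 astrocyte markers, 7 were called higher and 0 lower, with a median of 0.37, and their log2 summed level was 16.6 to 16.9 in WT and 17.1 to 17.2 in APP_WT. The part of either lineage in the results for Vcam1, Cd44 and Itgb2 was not tested.

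Markers of blood leukocytes, which carry these integrins, and of vessels were read in the same way. Of 12 lymphocyte markers 4 were expressed and 0 called, with fold changes from −0.01 to 0.08. Their log2 summed level was 11.2 to 11.6 in WT and 11.4 to 11.6 in APP_WT, while the markers without an expressed probe included Cd3d, Cd3g, Cd8a, Ms4a1, Cd79a, Cd79b and Gzmb. Of 7 markers of neutrophils and blood monocytes on the array, 2 were expressed and 0 called, with fold changes of 0.067 and 0.072. The log2 summed level of these 2 was 14.6 to 14.8 in WT and 14.5 to 15.2 in APP_WT. S100a8, S100a9, Ccr2, Mpo and Plac8 had no expressed probe. Of 10 endothelial markers 6 were expressed, all with a fold change above 0 (median 0.21), and 2 were called higher, Egfl7 with 0.30 and Flt1. The Flt1 probe was well above background on 3 of 4 arrays in APP_WT and on 0 of 4 in WT. Pecam1, Kdr, Tek and Vwf were expressed and not called, while Cdh5, Cldn5, Tie1 and Emcn had no expressed probe. The log2 summed level of the 6 expressed genes was 11.48 to 11.91 in WT and 11.76 to 12.01 in APP_WT. Of 8 markers of pericytes and fibroblasts 5 were expressed and 3 called lower, among them Lum (−0.62) and Pdgfrb (−0.45). Neuronal markers split into 2 higher and 2 lower of 7, with Syt1 at 0.43 and Dcx at −0.54, and those of the oligodendrocyte lineage into 1 higher (Cspg4, 0.32) and 1 lower (Olig2, −0.21) of 7.

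Other genes of adhesion were read from 5 lists. Of 14 expressed integrin subunits beyond the members, 4 were called higher in APP_WT and 0 lower: Itgb5 with 0.48, Itgb4, the laminin receptor chain, with 0.43, Itga1, the collagen receptor chain, with 0.38, and Itgb1, the partner of α4 and of many other α chains, with 0.25. The median over the 14 was 0.16. Itgb7, the other partner of α4, had −0.01 (adjusted p 0.926 by limma).

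Among other adhesion molecules of the vessel wall and of leukocytes, 7 of 14 were called higher and 1 lower, with a median of 0.25. Madcam1, a further immunoglobulin-type ligand of α4 integrins, had the highest fold change of this list, 1.36 (SD over arrays 0.35, adjusted p 2.56e-05 by limma). The sialomucin Cd34 had 0.58, Icam5, a neuronal ligand of LFA-1, 0.53, and the junctional molecule Jam2 0.53. Alcam, which binds Cd6, was the gene called lower, with −0.28. Genes without an expressed probe included the selectin genes Sele and Selp, the further Icam genes Icam2 and Icam4, and Cdh5 and Esam.

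Of 16 expressed genes of integrin activation and signalling, 8 were called higher and 2 lower, with a median of 0.25. Vav1, a guanine nucleotide exchange factor of blood cells, had 1.24. The adaptor gene Skap2 had 0.61. Apbb1ip, which encodes the adaptor RIAM between Rap1 and talin, was called higher too, but its probe was well above background on 2 of 4 arrays in APP_WT and on 0 of 4 in WT, so that no fold is given. Rap1a, with 1 array missing, had −0.29 and Cyth1 −0.17, both called lower. Among 9 expressed genes of selectin ligand glycosylation, 3 were called higher and 0 lower: Gcnt1, the core 2 branching enzyme of PSGL-1 glycans, with 0.90, the sialyltransferase gene St3gal6 with 0.64 and the galactosyltransferase gene B4galt1 with 0.35. Fut7, which adds the fucose needed for selectin binding, had 0.05 (adjusted p 0.650 by limma).

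Of 11 expressed ligands and partners of CD44, 3 were called higher and 1 lower, with a median of 0.04. Msn, which encodes moesin and links CD44 to actin, had 1.02, the hyaluronidase gene Hyal1 0.50 and Spp1, the gene of the ligand osteopontin, 0.48. Vcan, a hyaluronan-binding proteoglycan, was called lower with −0.39. The lists were chosen by function, and their counts stand beside 11.6% of all expressed probes called higher and 7% called lower.

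**Figure D4:**
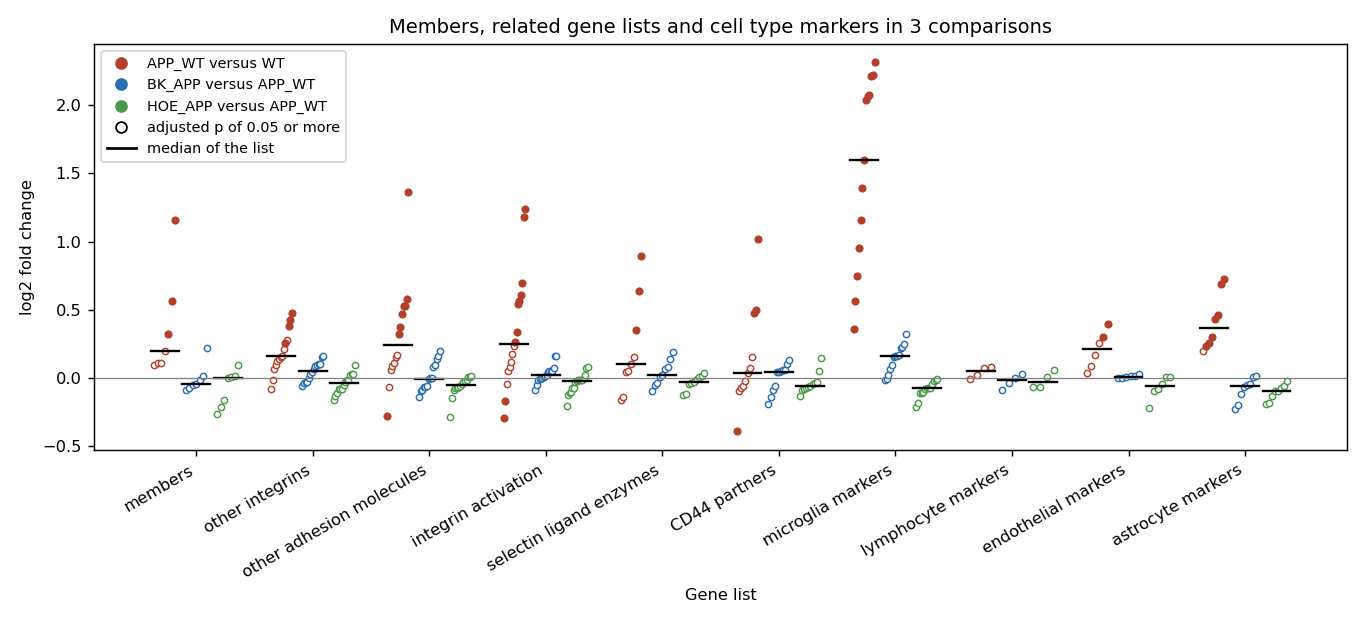
Log2 fold change (vertical axis) of every expressed gene in the member genes, 5 related lists and 4 lists of cell type markers, colored by comparison, filled where the adjusted p by limma was under 0.05, with a bar at the median of the list. Filled points occur in APP_WT versus WT alone, where microglia markers have the highest median, 1.60, and the median of the members is 0.20.

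The comparison of BK_APP with APP_WT asks what stimulation by BK added to the transgenes. By limma 0 of the 7 members were called, as were 0% of all expressed probes, and the smallest adjusted p over all probes was 0.967. At an unadjusted p under 0.05 there was 1 member, Vcam1, where 4.47% of all probes reached this. By the methods' rule, an unadjusted p at or below 0.05 both by SAM (significance analysis of microarrays) and by rank products, 1 member passed, again Vcam1, as did 1.3% of the probes with a value on all 4 arrays. The median over the 7 members was −0.04.

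Vcam1 had log2 levels of 12.89, 12.89, 12.82 and 13.06 in APP_WT and 13.12, 13.13, 13.21 and 13.07 in BK_APP. The BK_APP levels all lay above the APP_WT levels, by a small margin of 13.07 against 13.06. The ratios of 0.23, 0.24, 0.39 and 0.01 gave 0.22 (SE 0.09, adjusted p 0.967 by limma), which was 0.12 without array 3 and 0.31 without array 4. The second probe gave 0.24 (SE 0.07, adjusted p 0.967), with ratios of 0.33, 0.25, 0.23 and 0.15. Both probes were above 0 on all 4 arrays, as were 5.06% of all expressed probes. Icam1 was well above background in BK_APP on 2 of 4 arrays and in APP_WT on 0 of 4, with ratios of 0.17, 0.24, 0.21 and 0.03.

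The other members lay close to 0. Cd44 had 0.06, −0.12, −0.0012 and −0.16 on the arrays and a log2 fold change of −0.05 (SE 0.06), and its second probe −0.06. The integrins Itgb2, Itgam, Itgal and Itga4 had 0.02, −0.08, −0.04 and −0.02, each smaller than its SE or close to it, and Selplg had −0.08. Their 95% intervals ran from −0.27 at the lowest bound, that of Itgam, to 0.21 at the highest, that of Itgb2, so that changes inside these limits are not excluded. Vcam1 exceeded the mean of the integrins by 0.12, 0.25, 0.45 and 0.18 on the 4 arrays. Of the 13 microglia markers 11 were above 0 in this comparison with 0 called and a median of 0.16, and their log2 summed level was 12.9 to 13.1 in BK_APP and 12.8 to 13.0 in APP_WT. Of the 8 astrocyte markers 6 were below 0 (median −0.06) and of the 7 neuronal markers all were (median −0.12), with 0 called, where 47.4% of all expressed probes lay above 0. The part of these cell types in the Vcam1 values was not tested.

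For HOE_APP against APP_WT, in the likely direction, 0 of the 7 members and 0% of all expressed probes were called by limma, with a smallest adjusted p of 0.898. At an unadjusted p under 0.05 there were 2 members, Vcam1 and Cd44, both with a fold change below 0, where 5.03% of probes reached this level. By the methods' rule of SAM and rank products the same 2 members passed, as did 1.66% of probes.

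Cd44 had log2 levels of 10.01, 10.01, 9.91 and 9.93 in APP_WT and 9.90, 9.74, 9.56 and 9.62 in HOE_APP, where all 4 lay below the lowest APP_WT level. Its ratios were −0.11, −0.27, −0.35 and −0.31, with a log2 fold change of −0.26 (SE 0.06, unadjusted p 9.74e-04, adjusted p 0.924 by limma). The second Cd44 probe had −0.12 (SE 0.07) and was below 0 on 3 of 4 arrays. Vcam1 had levels of 12.98, 12.98, 12.95 and 13.13 in APP_WT and 12.63, 12.84, 12.84 and 12.90 in HOE_APP, again without overlap. Its ratios of −0.35, −0.14, −0.12 and −0.24 gave −0.21 (SE 0.09, adjusted p 0.924), but the second Vcam1 probe had −0.01 (SE 0.07), with 0.23 on array 3. With ratios centred on the median in place of loess, Vcam1 had −0.08 and Cd44 −0.15. Cd44 and Vcam1 were below 0 on all 4 arrays, as were 4.98% of all expressed probes.

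Itgam had 0.09, 0.11, −0.56 and −0.28, which again split by dye orientation, with a mean of 0.10 for replicates 1 and 2 and −0.42 for replicates 3 and 4. Itga4 had 0.10 (SE 0.07), Itgb2 0.02 (SE 0.09), Itgal −0.00031 (SE 0.07) and Selplg 0.01 (SE 0.08), with both signs among the arrays of each. Icam1 was well above background on 2 of 4 arrays in each condition, with ratios of 0.13, 0.13, 0.07 and −0.10. Vcam1 minus the mean of the integrins was −0.39, −0.24, −0.05 and −0.11, below 0 on each array. All 13 microglia markers were below 0 with 0 called and a median of −0.07, and their log2 summed level was 12.6 to 13.0 in HOE_APP and 12.8 to 13.0 in APP_WT. All 8 astrocyte markers were below 0 with 0 called and a median of −0.09, where 50.1% of all expressed probes lay above 0. The part of these lineages in the Cd44 and Vcam1 values was not tested. In both drug comparisons 0 genes of the 5 related lists were called.

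The difference between BK and HOE-140 at the matched dose of 1 µM was tested for each member as a contrast in the same model. That model did not pair arrays of the same replicate number. By limma 0 of 7 members and 0% of all expressed probes were called, while 2 members, Vcam1 and Cd44, had an unadjusted p under 0.05, as had 2.5% of probes. Vcam1 was higher by 0.43 in the BK contrast than in the HOE-140 contrast (SE 0.13, 95% interval 0.14 to 0.71, unadjusted p 0.00749, adjusted p 1.00), and its second probe by 0.25 (SE 0.10, interval 0.03 to 0.47). Cd44 differed by 0.21 (SE 0.08, interval 0.03 to 0.39, adjusted p 1.00) and its second probe by 0.06 (interval −0.17 to 0.29). For the integrins and Selplg the differences lay between −0.12 (Itga4) and 0.07 (Itgam), with intervals from −0.35 to 0.34 at their widest bounds. Were the HOE-140 ratios read in the opposite direction, the difference would be 0.01 for Vcam1 and −0.31 for Cd44.

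The genes whose 12 ratios lay closest to those of each member, by root mean square (RMS) difference on the log2 scale, are given as a description. For Vcam1 they were Ch25h (0.11), Ms4a6d (0.13) and Rac2 (0.13). For Cd44 they were Plxdc2 (0.11), Uaca (0.12) and Slc39a12 (0.12), and for Itgb2 Otud1 (0.08), Fam189a2 (0.10) and Hmox1 (0.11). Itgam had the closest neighbours of all members, Mcidas (0.04), Pdcd4 (0.04) and Slc8a3 (0.04). The Itgam ratios split by dye orientation in each comparison, and the RMS difference does not separate a shared dye difference from a shared change. Itgal lay nearest to Ece2 (0.08), Rilpl1 (0.08) and Arl2bp (0.09), Itga4 to Tvp23a (0.09), Jdp2 (0.09) and 1700037H04Rik (0.10), and Selplg to Fam20b (0.08), Heca (0.10) and Spata2 (0.10).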

How the data were processed

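Differentiated neurospheres were profiled on 12 2-color arrays, 4 for each comparison. For each array the authors deposited the scanner output, made with Feature Extraction 11.0.1.1 per the file headers, which is not the version that the study's methods name. It holds median intensities of spots and of the background around them in both colors, not normalized, flags that mark spots above background, and processed intensities, from which background and dye differences had been removed. The log10 ratio the authors deposited is that of these processed intensities, red over green. They also deposited a table of log2 ratios, which matched the processed ratios of every array in scale and in the direction used here.

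Median intensities were corrected by normexp with an offset of 50 and normalized within each array by loess (span 0.3, weight 0 for control and uneven spots) in limma 3.58.1 (R 4.3.3). Of 62976 spots the 3671 controls were dropped, and the spots of each probe were averaged. Gene names came from RefSeq's gene list, whose assembly differs from that of the array and which served for names alone, and 27509 of 29150 probes with a RefSeq identifier had a match. Channel levels are log2 intensities after normalization of the mean intensity between arrays (Aquantile). Their precision is limited by the 4 arrays of a comparison, and no counting interval applies. Ratios were turned to the first-named condition. Expressed probes, 29361, entered one model that gave every comparison its mean and its dye term, with 6 residual degrees of freedom and a moderated two-sided test. The limma model was tested on simulated ratios with changes of known size, and the outcome of that test is not given here. The named genes are all 9 members, the up to 4 genes of each list with the largest fold change among those called with the same sign on all 4 arrays, and the 3 genes nearest to each member, and a few genes of the lists are not reported here. Genes named beyond this rule, such as Itgb7, Fut7, Rap1a and Cyth1 or markers at the ends of a range, were chosen after their values were seen.

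Members and lists were chosen with earlier results of these data known. Alternatives concerned the background correction, the normalization, the filter on dim probes, the probe of a gene, the dye coefficient, separate fits, the methods' SAM and rank products, the deposited ratios, the direction of HOE_APP, the replicate number as a block and each array left out. Whether the replicate numbers pair the arrays was checked by the correlation of same-numbered deviations from the group means. It was 0.52 to 0.68 between BK_APP and HOE_APP arrays for every number, where same numbers also share the dye orientation, and −0.60 to −0.30 between APP_WT versus WT and either of them. With the mean of each dye orientation removed it was 0.42 to 0.43 and −0.51 to −0.21.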

Additional observations from a re-analysis of the deposited data

Results flagged for a closer look

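The brightest Vcam1 probe had ratios above 0 on all 4 BK_APP arrays and below 0 on all 4 HOE_APP arrays, in the likely direction of HOE_APP, and the difference between the drugs was 0.43 on the log2 scale, with an adjusted p of 1.00 by limma. The second Vcam1 probe had −0.01 in HOE_APP, with 0.23 on array 3, and a difference of 0.25. With the HOE_APP direction turned, the difference of the brightest probe was 0.01. Vcam1 minus the mean of the integrins was 0.25 in BK_APP and −0.20 in HOE_APP, a difference of 0.45 that was not tested and that rests on the same direction.

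Single arrays stood apart in 3 of 38 groups of 4 ratios and 9 of 76 groups of 4 channel levels of the 13 probes with printed values, where chance flags about 1 group in 20. The share of the range taken by the gap was 0.864 and 0.873 for the third Itgam probe in APP_WT versus WT and in BK_APP versus APP_WT, and 0.849 for the Itgax ratios in APP_WT versus WT. It was 0.831 for the Itgax level in APP_WT on the same arrays and 0.84 on the HOE_APP arrays, 0.845 for the Vcam1 level in APP_WT on the HOE_APP arrays, and 0.893 for the second Cd44 probe in APP_WT on the BK_APP arrays. For Itgb2 it was 0.891 in APP_WT on the BK_APP arrays, and 0.889 in HOE_APP and 0.87 in APP_WT on the HOE_APP arrays, where 1 array had a level of 8.89 and 8.91 in its channels. For Itga4 it was 0.916 in BK_APP and 0.942 in APP_WT, with levels of 9.08 and 9.24 on 1 array and of 6.63 to 6.83 in both channels of the others. The ratios of Itgb2 and Itga4 on these arrays were −0.01 and −0.17.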

How the results depend on the processing

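In APP_WT versus WT, Vcam1 (log2 fold change 0.92 to 1.28) and Cd44 (0.46 to 0.62) kept their direction and their call under all 17 alternatives run, while Itgb2 lost its call under 6 of them, with fold changes of 0.20 to 0.32, and 2 to 4 of the 7 expressed members were called. Without the filter on dim probes Vcam1 and Cd44 were called among these 7, and Icam1 in addition. The number of called probes moved from 5446 to 2371 with separate fits, to 2732 by SAM and rank products, and to 8265 with a replicate block of opposite sign in this comparison, an alternative added after seeing the data, under which Itga4 (0.20) was called too, with an adjusted p of 0.0416. The planned replicate block gave adjusted p-values of 1.64e-04 for Vcam1, 9.31e-04 for Cd44 and 0.0661 for Itgb2 and changed no other call of a member. SAM and rank products called 379 probes and 1 member in BK_APP and 486 probes and 2 members in HOE_APP. The block of opposite sign called 3 probes in HOE_APP, and a block over the 8 treatment arrays alone, also added later, called 49, with no member among them. With 1 array left out, between 0 and 62 probes were called in BK_APP, 0 to 9 in HOE_APP and 0 to 13 in the difference, and 0 members.

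Dim members also moved in size under processed signals in the drug comparisons, with −0.25 for Selplg in BK_APP and 0.27 for Itga4 and −0.15 for Itgal in HOE_APP, none called. In the difference between the drugs Selplg had −0.31 with processed signals. With no normexp offset Selplg had −0.19 and Itga4 −0.23 there, also not called. Some values near 0 changed sign without being called. With no normexp offset Itga4 had 0.0073 in BK_APP and Itgb2 −0.025 in the difference, and with no background subtraction they had 0.0067 and −0.018. With processed signals Selplg had −0.0097 in APP_WT, Itga4 0.17 in BK_APP and Itgal 0.083 in the difference. With median centring Itgam had −0.065 in APP_WT, Cd44 0.0103 in BK_APP and Itgb2 −0.0599 in HOE_APP. With the HOE_APP sign turned, the difference was −0.24 for Itgam, 0.0799 for Itga4 and −0.31 for Cd44. The cause of these shifts was not tested. With 1 array left out, Itgam ranged from −0.032 to 0.25, Selplg from −0.0028 to 0.22, Itgal from 0.042 to 0.15 and Itga4 from 0.14 to 0.26 in APP_WT. In BK_APP, Vcam1 ranged from 0.12 to 0.31, Cd44 from −0.099 to −0.0087, Itgam from −0.15 to −0.017, Itgb2 from −0.036 to 0.072, Itgal from −0.13 to 0.036, Itga4 from −0.063 to 0.027 and Selplg from −0.16 to 0.0078. In HOE_APP, Itga4 ranged from 0.0040 to 0.19, Itgam from −0.23 to −0.090, Itgb2 from −0.066 to 0.099, Itgal from −0.082 to 0.081 and Selplg from −0.019 to 0.032, and in the difference Itga4 from −0.21 to −0.022, Itgam from 0.0056 to 0.14, Itgb2 from −0.081 to 0.084, Itgal from −0.13 to 0.037 and Selplg from −0.17 to 0.0017.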
